A study of Mus musculus with 18 samples.

Results

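The miR-297, miR-466, miR-467 and miR-669 subfamilies are groups of related mouse miRNAs, most of which come from a tandem array of hairpins in an intron of Sfmbt2. Members were chosen by name alone: every row of the deposited miRNA table named miR-297, miR-466, miR-467 or miR-669 with a letter after the number, all arms included. That gave 51 named rows, of which 9 fall in 3 sets with identical values in all libraries. With each such set taken as a single row there were 45 distinct rows, of 571 in the whole table.

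The samples were 18 pools of mammary tumour RNA, 1 pool and 1 library for each of the AKXD recombinant inbred strains 2, 3, 7, 9, 10, 11, 13, 14, 16, 18, 20, 21, 22, 23, 24, 25, 27 and 28. AKXD strains descend from AKR/J and DBA/2J mice, and the tumours arose in F1 offspring of each strain and FVB/N-TgN(MMTV-PyVT)634Mul mice. All 18 pools therefore share the polyoma virus middle T transgene, which the mouse mammary tumour virus promoter drives mainly in mammary epithelium, and an FVB/N genome copy. The labels give neither ages nor the number of mice in a pool. With n = 1 per strain no difference between strains has a replicate check, and an SD over the 18 pools mixes differences between strains, pools and libraries. In tumour pools fewer cells of a type and less RNA per cell cannot be told apart. Depth ran from 4358324 miRNA reads in strain 7 up to 14946485 in strain 27. All 6 miRNAs of the epithelial list (miR-200a, miR-200b, miR-200c, miR-141, miR-429 and miR-375) were measured, with a summed level of 28587 CPM (strain 16) to 54739 CPM (strain 25). CPM are counts per 1000000 reads, scaled by a factor per library. Mature miRNAs are of nearly equal length, so no length correction was made. How evenly different sequences were captured was not tested. A ratio between rows is thus a ratio of reads, and not necessarily of molecules.

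A miRNA hairpin is cut to a short duplex, of which either arm can be loaded into an Argonaute protein. Bases 2 to 8 of the loaded arm, the seed, do most of the pairing with target mRNAs. Sfmbt2 encodes a Polycomb group protein. In the mouse it is imprinted, with expression from the paternal copy in early embryos and in placenta, and the miRNA array in its intron is best known from placenta and embryonic stem cells.

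The name of the array was checked against the annotation. GENCODE M21 (GRCm38) lists 81 hairpins with these 4 numbers. Of these, 71 lie on the plus strand of chromosome 2, between 10466663 and 10518279, inside Sfmbt2 (10370510 to 10595253, plus strand). All 71 fall in 1 intron, between exons 10 and 11 of an annotated coding transcript (10461473 to 10523944), and none overlaps an Sfmbt2 exon. The other 10 lie elsewhere in the genome. By name, 34 of the 45 distinct rows match hairpins in Sfmbt2 alone. Another 3 (miR-466f and both its named arms) match hairpins in Sfmbt2 and on chromosome 13, and miR-466a-5p has no hairpin of its name. The annotated hairpins Mir466, in the intron, and Mir297-1, on chromosome 7, carry no letter and were matched to no row. The label therefore does not hold for 7 rows, miR-466i, miR-466j, miR-466k, miR-467f, miR-467g, miR-467h and miR-669n, whose only annotated hairpins lie on other chromosomes.

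Mature sequences of these 7 are printed to show the repeats that they hold. RefSeq (GRCm38.p6) held a mature sequence under the exact name of 6 of the 51 rows. For miR-466i it holds miR-466i-3p, and as the row names no arm, that match rests on the hairpin's name. Capitals mark the seed.
miR-466i-3p: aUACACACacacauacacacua
miR-467f: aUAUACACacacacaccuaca
miR-467g: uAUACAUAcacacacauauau
miR-466j: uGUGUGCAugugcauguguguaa
miR-466k: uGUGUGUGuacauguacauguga
miR-467h: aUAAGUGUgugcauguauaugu
miR-669n: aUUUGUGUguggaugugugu
The first 3 hold runs of alternating A and C and no G, and the other 4 hold stretches of alternating U and G. The 7 seeds differ from each other, and none is shared by another row of the table that has a RefSeq sequence. The members from the Sfmbt2 intron had no such sequence. Whether they share a seed with these 7 could therefore not be seen. The motif UGUGUGUG, searched on the RNA strand only, occurs in 4 of the 132 rows of the table with a RefSeq sequence (3.03%). These are miR-466k, miR-669n and 2 rows that are no members:
miR-1187: uAUGUGUGuguguauguguguaa
miR-574-5p: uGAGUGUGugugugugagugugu
A read of such a repeat can fit several rows, so levels of single members are uncertain to that extent.

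miR-466i lies on chromosome 13 (17747552 to 17747573, plus strand), in an intron of Cdk13 but on the opposite strand. miR-467f lies on chromosome 11 (69635419 to 69635439, minus strand) and miR-467g on chromosome 5 (34732872 to 34732892, minus strand), in introns of Fxr2 and Grk4 on the opposite strand. miR-466k (chromosome 3, 85467396 to 85467418, plus strand) lies opposite an intron of Gm37240. miR-669n (chromosome 3, 115979905 to 115979924, plus strand) lies opposite an intron of Slc30a7. miR-466j (chromosome 10, 60960802 to 60960824, plus strand) and miR-467h (chromosome 9, 115381898 to 115381919, plus strand) lie outside other annotated genes. None of the 7 thus lies in a host gene's intron on its own strand.

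The whole set was low in these tumours. Summed over the 45 distinct rows, it was lowest at 224 CPM, in strains 7 and 22, had a median of 343 CPM and was highest at 633 CPM, in strain 9. Strain 27 (540.96 CPM) and strain 13 (509 CPM) followed strain 9. In reads, before the scaling factor, the set took 916 of the 4358324 reads of strain 7, or 210 reads per 1000000 (exact Clopper-Pearson 95% interval 197 to 224). In strain 9 it took 8474 of 11469135 reads, or 739 per 1000000 (723 to 755). Strain 9 was thus 2.83 times strain 7 by CPM, outside the counting error of either library. The intervals cover counting error only.

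Of the 45 distinct rows, 10 had a mean of 10 CPM or more, the filter on low values. Some rows under it are described by strain as well. Another 20 had a mean of 1 to 10 CPM and 15 were under 1 CPM. Reads were found in every strain for 35 rows. The 10 rows past the filter were miR-297a and miR-297c, miR-466d-3p, miR-467a, miR-467c, miR-467d and miR-467e, and miR-669a, miR-669c and miR-669l. By arm, 30 rows without an arm name made up 81.6% of the summed mean level, 8 rows named 5p 7.89%, 4 rows named 3p 9.11% and 3 * rows, the arms named as passengers, 1.37%.

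**Figure D1:**
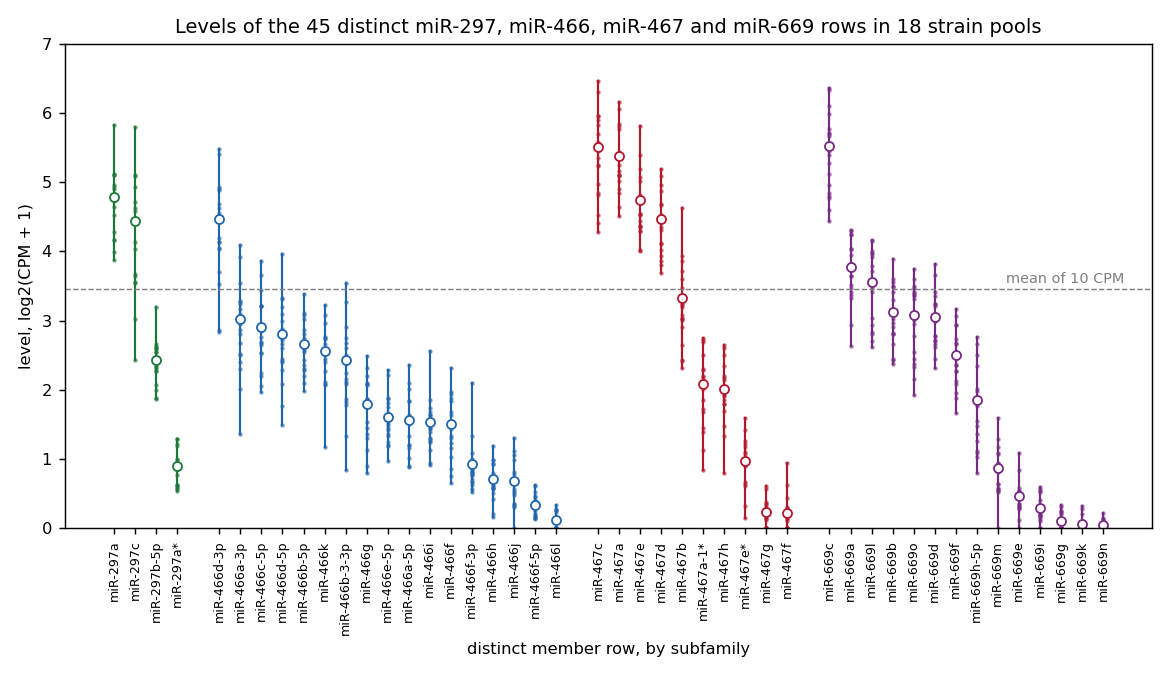
Level of each of the 45 distinct rows on the log2(CPM + 1) scale, grouped by subfamily (colours) and ordered by mean. Small points are the 18 strain pools, lines span the lowest to the highest pool, and open circles mark the log2 of the mean CPM plus 1. The dashed line is a mean of 10 CPM, and 10 rows have their circle above it.

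The miR-297 subfamily had 4 distinct rows. miR-297a, with 3 annotated hairpins in the intron, was lowest at 13.7 CPM in strain 7, had a median of 26.7 CPM and was highest at 55.7 CPM in strain 9. miR-297c, with 1 hairpin, was lowest at 4.41 CPM in strain 10, had a median of 20.9 CPM and was highest at 54.9 CPM in strain 9. Both were thus highest in the same pool, but the low end of miR-297c reached much further down. miR-297b-5p had a mean of 4.39 ± 1.28 CPM (SD, n = 18). The row shared by miR-297a*, miR-297b-3p and miR-297c* had a mean of 0.856 CPM, with a median of 8.50 reads per library.

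The miR-466 subfamily had the most rows, 17 distinct of 20, but only miR-466d-3p passed the filter. It was lowest at 6.13 CPM in strain 21, had a median of 19.4 CPM and was highest at 43.7 CPM in strain 9. Strain 16 was also low, at 6.24 CPM, and strain 13 also high, at 41.5 CPM. The row shared by miR-466a-3p, miR-466b-3p, miR-466c-3p and miR-466e-3p followed at 7.13 ± 3.68 CPM (SD, n = 18). Like miR-466d-3p it had its lowest level in strain 21, at 1.56 CPM, and its highest in strain 9, at 16.0 CPM. Of the 5p rows miR-466c-5p was the most abundant, with a mean of 6.52 CPM, a lowest level of 2.92 CPM (strain 28) and a highest of 13.5 CPM (strain 16). Strain 16 was thus highest for the 5p row of miR-466c and next to lowest for the 3p row of miR-466d. The remaining rows of the subfamily had means of 0.0855 CPM (miR-466l) to 5.996 CPM (miR-466d-5p).

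The miR-467 subfamily held 4 of the 10 rows past the filter. miR-467c was lowest at 18.5 CPM in strain 22, had a median of 41.4 CPM and was highest at 86.9 CPM in strain 27, the highest value of any member in any pool. miR-467a, for which 10 hairpins are annotated, was lowest at 21.8 CPM in strain 22, had a median of 36.0 CPM and was highest at 70.5 CPM in strain 9. miR-467e was lowest at 15.1 CPM in strain 21 and highest at 55.02 CPM in strain 27. miR-467d was lowest at 11.9 CPM in strain 16 and highest at 35.6 CPM in strain 13, and had the smallest SD of the 10 rows, 0.46 log2. miR-467b, just under the filter with a mean of 9.06 CPM, was lowest at 3.95 CPM in strain 10 and highest at 23.7 CPM in strain 9. The * row shared by the hairpins miR-467a-1 and miR-467d had a mean of 3.23 CPM, and miR-467e* one of 0.966 CPM.

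In the miR-669 subfamily miR-669c had the highest mean of all members, 44.9 ± 18.7 CPM (SD, n = 18). It was lowest at 20.8 CPM in strain 22, had a median of 42.0 CPM and was highest at 81.0 CPM in strain 10. miR-669a was lowest at 5.23 CPM in strain 21 and highest at 18.9 CPM in strain 27. miR-669l was lowest at 5.16 CPM in strain 11 and highest at 16.9 CPM in strain 9. The 11 other rows of the subfamily had means under 8 CPM. miR-669k had reads in 4 strains, miR-669n in 6 and miR-669g in 8, with at most 4 reads in any library. A count of 0 allows up to 0.193 CPM in strain 27, the deepest library, and 0.734 CPM in strain 7, the shallowest. In strain 25 a single read is written like no read, so a 0 there can be 1 read.

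The number of annotated hairpins did not order the levels in reads. miR-669a, with 12 hairpins in the intron, had a mean of 12.6 ± 4.12 CPM (SD, n = 18), and miR-467a, with 10, had 40.7 ± 14.1 CPM. miR-669c and miR-467c, with 1 hairpin each, had 44.9 CPM and 44.6 ± 19.6 CPM. The hairpins are those of the C57BL/6J reference, and copy number in the AKXD, AKR/J, DBA/2J or FVB/N genomes was not analysed here. Along the 51.6 kb of the array the single hairpins of miR-467e, miR-467d, miR-297c, miR-669c and miR-466d lie in this order between 39.1 and 45.3 kb from the first hairpin, and those of miR-669l and miR-467c at 2.31 and 7.27 kb.

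**Figure D2:**
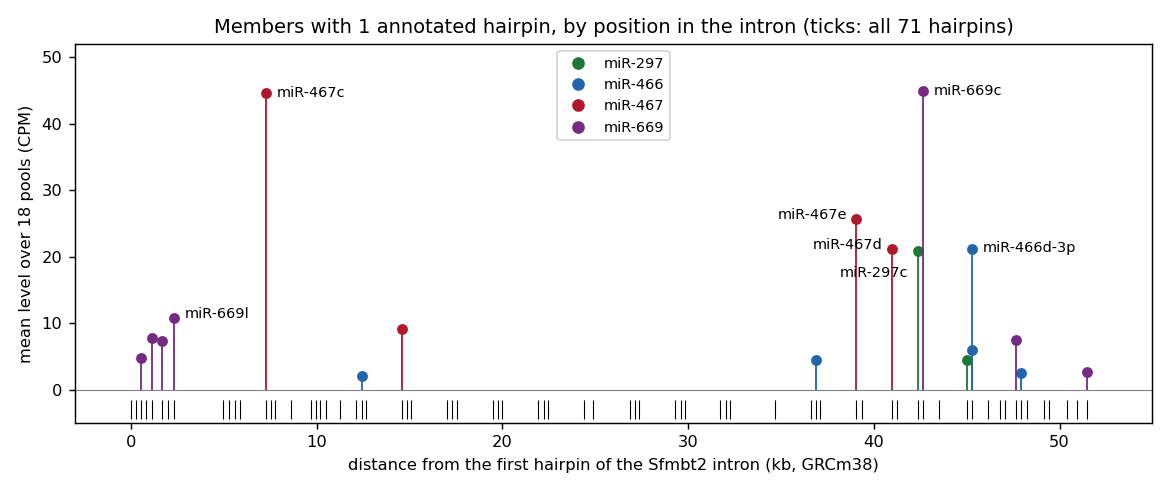
Mean level over the 18 pools (CPM, vertical axis) of members with 1 annotated hairpin in the Sfmbt2 intron whose mean is 1 CPM or more, by the distance of that hairpin from the first hairpin (kb, horizontal axis). Ticks below 0 mark all 71 hairpins, so members with several hairpins appear as ticks only. miR-467c and miR-669c, at 44.6 and 44.9 CPM, stand highest.

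The 7 rows with hairpins elsewhere were all under the filter. miR-466k was lowest at 1.25 CPM in strain 14, had a median of 4.93 CPM and was highest at 8.39 CPM in strain 9. miR-467h was lowest at 0.736 CPM in strain 7, had a median of 2.85 CPM and was highest at 5.24 CPM in strain 9. miR-466i had a mean of 1.88 CPM, miR-466j, read in all strains but 1, one under 1 CPM, and miR-467f, miR-467g and miR-669n means of 0.166, 0.172 and 0.0321 CPM. Over the 18 pools miR-467h had a median Spearman rho of 0.730 with the 10 rows past the filter, all of which have hairpins in the Sfmbt2 intron. For miR-466k the median was 0.423 and for miR-466i 0.400. miR-466j (-0.0186) and miR-467f (-0.189), with few reads, had values near or below 0. These values are descriptions over 18 pools that share libraries and scaling.

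The SD over the 18 pools of the 10 rows was 0.46 (miR-467d) to 0.82 log2 (miR-297c), with a median of 0.50, against a median of 0.45 over the 281 rows past the filter in the whole table. Read counting alone accounts for an SD of 0.06 to 0.13 log2 in these rows. Of the 10, 5 were highest in strain 9, 3 in strain 27, 1 in strain 10 and 1 in strain 13. Strains 21 and 22 each held the lowest value of 3 rows, and strains 7, 10, 11 and 16 that of 1 row each. Of all 45 distinct rows, 22 were highest in strain 9.

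**Figure D3:**
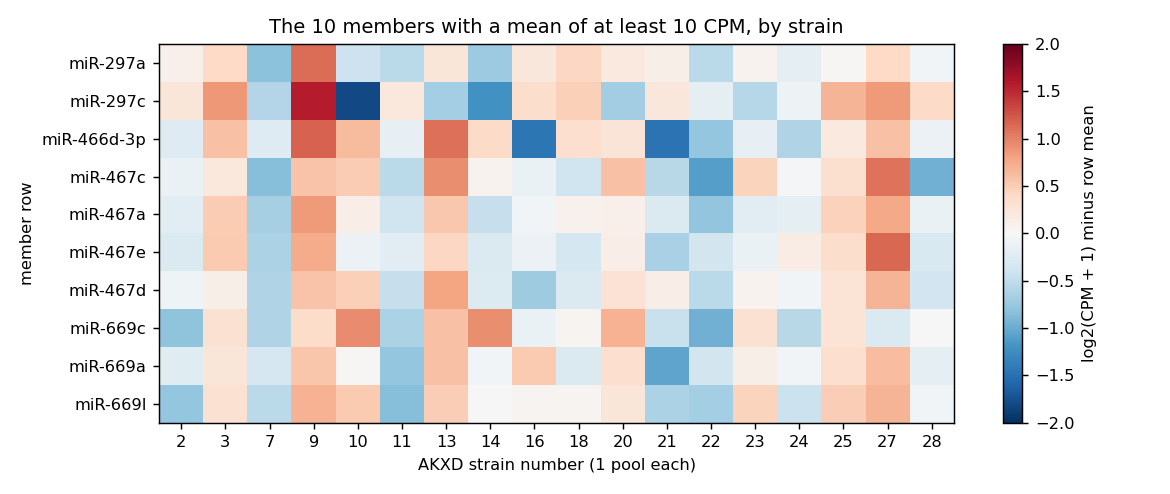
Level of the 10 rows past the 10 CPM filter in the 18 strain pools, as log2(CPM + 1) minus the row's mean (colour), with strains on the horizontal axis. Strains 3, 9 and 25 are above the mean in all 10 rows and strains 7 and 22 below it in all 10, while miR-297c is lowest in strain 10, where miR-669c is highest.

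Cell type lists were set beside strain 9, the highest pool of the set, and strains 7 and 22, the lowest. The skeletal muscle list (5 of 5 miRNAs measured, none at 0) lay between 22342 CPM (strain 9) and 303086 CPM (strain 14), and was second lowest in strain 7, at 23922 CPM. The erythroid list (3 of 3 measured, none at 0) lay between 206 CPM (strain 9) and 808 CPM (strain 14), with 293 CPM in strain 7. The leukocyte list (5 of 5 measured, none at 0) lay between 1573 CPM (strain 10) and 18248 CPM (strain 27), with a median of 4533 CPM. It was near that median in strain 9 (5236 CPM) and in strain 7 (4987 CPM). In strain 22 the muscle, erythroid and leukocyte lists had 57456, 375 and 3423 CPM. The muscle list was thus near its lowest in strain 9, the highest pool of the Sfmbt2 set, and in strain 7. It was higher in strain 22, where the set was as low as in strain 7. The mesenchymal list (5 of 5 measured, none at 0) had its lowest sum, 634 CPM, in strain 7, against 896 CPM in strain 9 and a highest sum of 1260 CPM in strain 24. The basal epithelial list (2 of 2 measured, none at 0) had its lowest sum, 1568 CPM, in strain 22, against 2235 CPM in strain 9, 2416 CPM in strain 7 and a highest sum of 10652 CPM in strain 2. Each of these 2 lists was thus lowest in 1 of the 2 pools where the Sfmbt2 set was lowest, but not in the other. In strain 22 the mesenchymal list, at 952 CPM, was above its sum in strain 9. In strain 7 the basal epithelial list was above its sum in strain 9. The endothelial list (2 of 2 measured, none at 0) had 11920 CPM in strain 9, 12598 CPM in strain 7 and 11368 CPM in strain 22, in a range of 8286 to 22301 CPM. The part of these cell types in the levels was not tested. For the miR-290 cluster, which marks pluripotent and early trophoblast cells, 3 of 9 names had a row, and their sum was at most 0.538 CPM (strain 16).

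The 10 rows past the filter mostly varied together. The median Spearman rho of the 45 pairs among the 10 rows was 0.620, against 0.00516 for the 39340 pairs of all 281 rows. By subfamily the median was 0.792 for the 6 pairs of miR-467 rows (0.664 to 0.853) and 0.725 for the 3 pairs of miR-669 rows. The 35 pairs from different subfamilies had a median of 0.573, with 0.870 for miR-467e and miR-669a. Some rows of nearly the same name were close, with a rho of 0.988 for miR-466a-3p and miR-466b-3-3p and of 0.909 for miR-669l and miR-669o. Rows of different subfamilies could be as close, with 0.917 for miR-297c and miR-467b. How far shared reads enter these values was not tested. With rows of 1 CPM or more included, 435 pairs of 30 rows had a median of 0.556, and over all 45 distinct rows, with those of few reads, the median was 0.320.

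**Figure D4:**
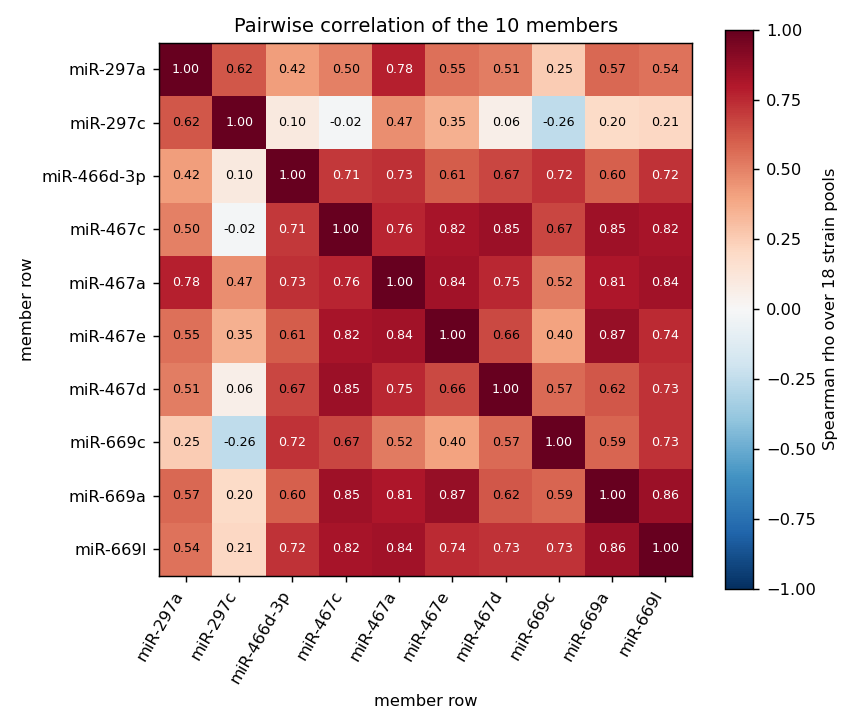
Spearman rho over the 18 strain pools for each pair of the 10 rows past the 10 CPM filter (colour and printed value). Values for miR-297c stand out as low: -0.26 with miR-669c (0.21 with libraries scaled by total alone) and -0.02 with miR-467c, the only values below 0.

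miR-297c departed from the rest. Its hairpin ends 182 bases before that of miR-669c on the same strand, yet over the 18 pools the pair had a Spearman rho of -0.257 (Pearson r = -0.362), with the sign turning when libraries were scaled by total alone (rho 0.209). miR-297c was closest to miR-467b (rho 0.917), whose hairpin lies 27.7 kb upstream, and to miR-466d-5p (rho 0.905), whose hairpin lies 2.85 kb downstream. miR-467b and miR-466d-5p had a rho of 0.899 with each other. miR-669c was closest, among the other 9 rows past the filter, to miR-669l (0.725) and miR-466d-3p (0.719). The hairpin of miR-466d lies 2.56 kb downstream of that of miR-669c. High values were thus found both for near and for distant hairpins. These pairs were picked by their rho, and a relation of rho to distance in the array was not tested.

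The ratio of miR-297c to miR-669c within a library does not depend on the scaling factor. It was lowest in strains 10 (0.0544), 14 (0.0890), 20 (0.158) and 13 (0.173). In the other 14 pools it ran from 0.228 in strain 23 to 1.03 in strain 9, so the ranges did not overlap. In strain 10 the ratio rests on 38.0 reads of miR-297c and 698 of miR-669c, and in strain 9 on 735 and 715. In CPM both rows differed: miR-297c was at 4.41 to 10.8 CPM in these 4 pools and at 11.5 to 54.9 CPM in the others, and miR-669c at 62.5 to 81.0 CPM against 20.8 to 53.4 CPM. Unlike the ratio, this split depends on the scaling. With total reads alone the miR-669c ranges overlapped (48.2 to 57.8 CPM against 22.4 to 68.6 CPM), and with upper-quartile scaling those of miR-297c did (4.68 to 12.1 CPM against 11.5 to 56.9 CPM).

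Strains 10, 13, 14 and 20 are also the 4 libraries that stand apart from the rest in the whole table. They are lowest on its first principal component (27.6% of the variance), and their scaling factors, 0.671 to 0.776, are the 4 lowest of the 18. These 4 were picked from the data and are no group of the study. Their ranges and those of the other 14 pools did not overlap for 31 of the 281 rows past the filter (11.0%), 16 lower and 15 higher. Among the 10 members past the filter this held for 2, miR-297c and miR-669c. The part of the library difference in the members' values was not tested. Without these 4 pools the rho of miR-297c with miR-669c was 0.604 (n = 14) in place of -0.257, and with miR-467b 0.925. The highest ratio of miR-297c to miR-669c was 18.9 times the lowest over 18 pools and 4.50 times over the 14.

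**Figure D5:**
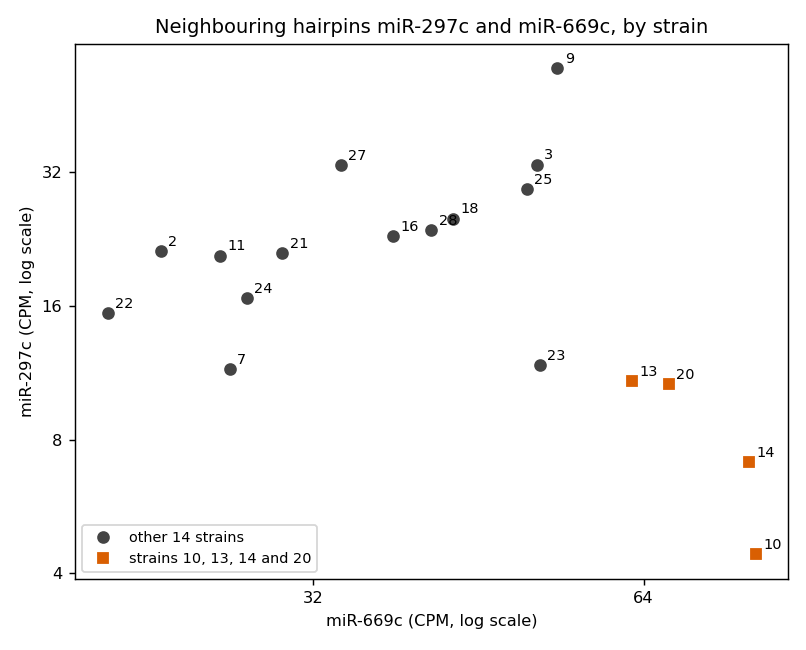
Level of miR-297c (vertical axis) against that of miR-669c (horizontal axis), both in CPM on log scales, with each of the 18 strain pools labelled by its strain number. The 14 circles have a rho of 0.604, while strains 10, 13, 14 and 20 (squares) lie low for miR-297c, at 4.41 to 10.8 CPM, and high for miR-669c, at 62.5 to 81.0 CPM, which overlaps the others with libraries scaled by total alone.

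The same 4 pools also lay apart for the 5p row of the hairpin miR-466d, which is under the filter, and for the ratio of its arms. The share of 31 in 281 covers rows past the filter only. For rows under it and for arm ratios of other hairpins no share is given here, so this is not shown to be particular to miR-466d. miR-466d-5p was at 1.82 to 3.85 CPM in strains 10, 13, 14 and 20 and at 4.28 to 14.5 CPM in the other 14, without overlap except under upper-quartile scaling (highest of the 4 4.35 CPM, lowest of the others 4.06 CPM). miR-466d-3p was at 22.6 to 41.5 CPM in the 4 and at 6.13 to 43.7 CPM in the others, which overlap. The ratio of the 5p to the 3p arm ran from 0.0575 (strain 13) to 0.171 (strain 20) in the 4 pools and from 0.259 (strain 23) to 0.871 (strain 21) in the others. Strains 16 (0.812) and 21, which had the least miR-466d-3p, stood far above the next ratio, 0.438 in strain 28.

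Arms of 1 hairpin come from 1 precursor, so their levels over strains were compared for every hairpin of the table with 2 rows. Spearman rho over the 18 pools was tested by permutation (two-sided, 100000 resamples) with Benjamini-Hochberg adjustment over all hairpins tested. With both arms at a mean of 10 CPM or more, 58 hairpins were tested and 15 called (25.9%). No member hairpin was among the 58, since none had both arms past the filter. Without the filter 141 hairpins were tested and 30 called (21.3%), and 1 of the 11 member hairpins was called, miR-466a. That share is not above the background, and the median rho was 0.340 for the 11 and 0.290 for the 141. The 11 are not independent, because miR-466a, miR-466b, miR-466c and miR-466e share a 3p row and miR-297a, miR-297b and miR-297c a * row.

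The arms of miR-466a had a Spearman rho of 0.5996 (permutation p = 0.00990, adjusted p = 0.0481) and a Pearson r of 0.547 (permutation p = 0.0181). With strains 22 and 27, the extremes of miR-466a-5p around its median, left out, r was 0.579. The call was marginal. It ended on leaving out any 1 of strains 2, 3, 7, 9, 13, 16, 18, 20, 21, 22, 23, 25, 27 and 28 (adjusted permutation p of 0.0503 to 0.105), with libraries scaled by total alone (rho 0.393, adjusted permutation p = 0.156), with Pearson r (adjusted permutation p = 0.0554) and without strains 10, 13, 14 and 20 (adjusted permutation p = 0.109). miR-467e and its * arm came next (rho 0.589, adjusted permutation p = 0.0532, r = 0.660), and this pair was called without strain 16, 20, 22 or 28 (rho 0.632 to 0.733). It was also called with libraries scaled by total (adjusted permutation p = 0.00418), median of ratios (0.0476) or upper quartile (0.0165), and with Pearson r (0.0150). miR-467d and its * row followed (rho 0.573, adjusted permutation p = 0.0598, r = 0.564), called without strain 18, 21, 22 or 28 (rho 0.623 to 0.686), with upper-quartile scaling (adjusted permutation p = 0.0384) and with Pearson r (0.0479). miR-466b (rho 0.550, adjusted permutation p = 0.0704) and miR-466c (rho 0.496, adjusted permutation p = 0.108) were called without strain 16 (rho 0.775 and 0.725). miR-466b was also called with libraries scaled by total (adjusted permutation p = 0.0197) or upper quartile (0.0376), and with Pearson r (0.0341). For these 5p rows strain 16 was high while the shared 3p row was low in it.

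The arms of miR-466d were not called over 18 pools, with a rho of 0.119 (permutation p = 0.639, adjusted p = 0.763) and a Pearson r of 0.115 (permutation p = 0.647). With strains 14 and 9, the extremes of miR-466d-5p, left out, r was -0.0340. Without strains 10, 13, 14 and 20 the rho was 0.824 (adjusted permutation p = 0.0110, n = 14). Those pools were picked from these same data, and miR-466d-5p was lowest in them while miR-466d-3p was not. The p-value takes no account of that choice, so no call of this pair is drawn from it. The arms of miR-297a, miR-297b and miR-297c had rho values of 0.255, 0.265 and 0.191 (adjusted permutation p of 0.457 to 0.604), and those of miR-466e 0.340 (adjusted permutation p = 0.319). miR-466f-5p and miR-466f-3p had a rho of 0.0196 (adjusted permutation p = 0.974), from a median of 2.50 and 7.00 reads per library. At such depth a relation of this kind may not be detectable.

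In reads the arms were uneven. miR-297a was at 26.5 CPM. The * row it shares with miR-297b and miR-297c was at 0.856 CPM, a * to guide ratio of 0.0323. For miR-467e that ratio was 0.0376, and for miR-467d, which shares its * row with miR-467a-1, 0.153. For miR-466d the 3p row was 3.53 times the 5p row. For miR-466f it was 3.46 times, at a median of only 2.50 reads for 5p and 7.00 for 3p. miR-466a, miR-466b, miR-466c and miR-466e share a 3p row, at 7.13 CPM. Their 5p rows were at 1.96, 5.33, 6.52 and 2.05 CPM, so the shared row was 3.64, 1.34, 1.09 and 3.47 times each. How much of the shared row comes from each hairpin is unknown, so these 4 ratios do not give the arm balance of a hairpin.

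Outside the set, the rows most like the 10 members by median Spearman rho over the 18 pools were miR-28 (0.727), miR-24 (0.621), miR-98 (0.590), let-7d (0.581) and miR-1839-5p (0.566). miR-28, the closest, was lowest at 235 CPM in strain 21 and highest at 495.2 CPM in strain 27. Its rho was above 0 with all 10 members, 0.263 with miR-297c and 0.420 with miR-669c. let-7d and miR-98, both of the let-7 family, were below 0 with miR-297c (-0.174 and -0.276). At the other end stood miR-1937b (-0.676), miR-1937a (-0.644) and miR-720 (-0.572), entries since regarded as fragments of transfer RNA. miR-1937b was lowest at 7.67 CPM in strain 9 and highest at 55.2 CPM in strain 7, the strains where the Sfmbt2 set was highest and lowest.

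The rows outside the set with the UGUGUGUG motif had a rho near or below 0 with miR-297c and miR-669c. miR-574-5p was lowest at 1.75 CPM in strain 2 and highest at 8.73 CPM in strain 21, with a rho of 0.0217 with miR-297c and -0.00516 with miR-669c. miR-1187 was lowest at 0.836 CPM in strain 27 and highest at 11.2 CPM in strain 21 (rho of -0.236 and -0.265).

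The other imprinted miRNA loci were compared by level and spread. Of the Dlk1-Dio3 list, the maternally expressed array of chromosome 12, 57 rows were measured and 19 passed the filter, with a median SD of 0.37 log2 and a median pairwise rho of 0.348 over 171 pairs. The summed level of the 57 lay between 2068 CPM (strain 27) and 3708 CPM (strain 18), and was 2477 CPM in strain 9. Strain 27, the second highest for the Sfmbt2 set, was thus the lowest for Dlk1-Dio3. The H19/Igf2 list was at most 0.260 CPM (strain 21). The Mest list of both miR-335 arms lay between 8.70 CPM (strain 10) and 53.0 CPM (strain 23). No test between these loci was run.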

How the data were processed

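Per the labels, RNA of 18 tumour pools, 1 per strain, was isolated with the mirVana kit, and its small RNA was sequenced on a Genome Analyzer IIx. The authors deposited 1 table of 583 mature miRNA rows with log2 values. Per the submitters' processing notes, BWA and mm9 were used, in roles and a version left unstated. Not given in the sources used here were the counter, the miRNA annotation and the treatment of reads with several matches. On a linear scale the deposited values of a library are whole multiples of what 1 read is worth there (100% of 3813 values under 50 reads, within 0.006 log2), and a row without reads is 0. All 108 such low values of the identical member rows were whole as well. Read numbers above that are approximate, since values have 2 decimals.

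Values were returned to a linear scale, identical rows counted once, and libraries scaled by TMM (trims of 30% for log ratios, 5% for abundances; factors 0.671 to 1.67). Correlations and SDs use log2(CPM + 1), which understates changes of low rows. The filter on low values, a mean of 10 CPM, kept 281 rows, and some rows under it are described where named. Strains, with 1 pool each, were not tested against each other. The p-values concern only the correlation of 2 arms over these libraries. Arm pairs were tested by permutation with a threshold of 0.05 on adjusted p. The arm test was first checked on simulated data.

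Members, lists and tests were chosen with earlier results of these data known. Named rows are the 10 most abundant members, the first of each subfamily and arm, the largest and smallest SD, both arms of tested hairpins, and outside the set the 5 highest and 3 lowest by median rho, rows sharing a seed and rows with UGUGUGUG. The ratio of miR-297c to miR-669c and the members named with it were chosen after their values were seen. Hairpins were matched by name to GENCODE M21; the table holds no coordinates, and those given are of GRCm38. Alternatives were other scalings, pseudocounts and filters, strains left out, Pearson r, and removal of the first principal component. Python 3.11.15, numpy 2.4.6, pandas 2.3.3, scipy 1.17.1 and matplotlib 3.10.9 were used.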

Additional observations from a re-analysis of the deposited data

How the results depend on the processing

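No paired analysis was possible because every strain is 1 pool and no other label pairs the libraries. Strain 9 was the highest pool for the summed members under all scalings, and strain 7 or 22 the lowest. The highest pool over the lowest was 2.83 in the main setting, 3.52 with total counts alone, 3.11 under upper-quartile scaling, and 2.42 to 2.91 with each strain left out. Total counts alone shift the median of all tested rows by -0.57 log2 (strain 14) to 0.74 log2 (strain 28), so changes are relative to that. The number of members past the filter was 10 in the main setting and with each strain left out, 45 without the filter and 0 at a mean of 100 CPM. The median SD of 0.50 log2 became 0.56 with total counts alone, 0.42 with a pseudocount of 5 CPM, 0.45 without the filter and 0.56 without strains 10, 13, 14, 20 and 28 (0.49 to 0.52 with each strain left out). The median pairwise rho of 0.620 became 0.320 without the filter, with 0.578 to 0.676 when each strain was left out. The ratio of miR-297c to miR-669c, whose highest pool was 18.9 times its lowest, spanned 4.50 times both without strains 10, 13, 14 and 20 and without these and strain 28, alternatives chosen after seeing the data.

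Of all hairpins, 15 had called arms in the main setting, 34 with total counts alone, 30 without the filter and 6 at a mean of 100 CPM (12 to 18 with each strain left out). Among member hairpins 0 of 0 became 1 of 11 without the filter, so the main setting says nothing on them. The rho of the miR-466d arms was -0.0466 to 0.277 with each strain left out, turning sign without strain 9. That of the miR-466f arms, 0.0196 in the main setting, had no stable sign: 0.410 with total counts alone, -0.0613 to 0.211 with each strain left out, -0.0462 without strains 10, 13, 14 and 20, and -0.205 as Pearson r. The cause of these changes was not tested. The call of miR-466a held in 8 of 26 alternatives. These 8 include the pseudocounts of 0.5 and 5 CPM, which cannot change a rank correlation. Depth limits rows under 1 CPM, most of which rest on fewer than 10 reads per library.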
